A study of Mus musculus with 6 samples.

Results

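Small nucleolar RNAs (snoRNAs) and small Cajal body RNAs (scaRNAs) were followed in sequencing libraries of mouse liver total RNA. Genes were taken whose symbol begins with Snora, Snord or Scarna and a digit and whose fragments, summed over the 6 libraries, reached 60. Of the 150 genes with such symbols in the table, 48 met that sum: 14 of 99 Snord genes (C/D class), 27 of 42 Snora genes (H/ACA class) and 7 of 9 Scarna genes. These 48 members were chosen by their fragment sum over both groups, so that their being detected is no result.

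snoRNAs are short nuclear RNAs that guide chemical modification of other RNAs by base pairing. C/D snoRNAs carry the C and D box motifs and direct ribose methylation, and H/ACA snoRNAs end in an ACA box and direct the conversion of uridine to pseudouridine, in both cases mainly on ribosomal RNA. A few members of each class act instead in the cleavage of the ribosomal RNA precursor, and scaRNAs guide the same modifications on spliceosomal RNAs. Most mammalian snoRNAs lie inside introns of host genes, often genes of ribosomal proteins or noncoding Snhg genes, and are trimmed out of the spliced intron.

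Li-KO livers (3 libraries) lacked Klf15 by a liver-specific knockout and Ctl livers (3 libraries) carried Albumin-Cre, all at 10 weeks of age. Klf15 is a Kruppel-like transcription factor, and the albumin promoter drives Cre in hepatocytes, so that other liver cells are expected to keep the gene. The labels give neither the sex of the mice nor the targeted alleles, and do not say that the libraries of a group came from separate mice. p-values then measure the spread between these libraries, which may be technical. The libraries held 30716763 to 43375781 deposited fragments in Li-KO and 35711583 to 42745999 in Ctl. Levels are given as CPM, fragments scaled to the same normalised library size. Klf15 itself had 54.3, 41.6 and 51.8 CPM in Li-KO libraries 0, 1 and 2, against 345.5, 174 and 196 CPM in Ctl libraries 0, 1 and 2, a log2 fold change of -2.28 ± 0.26 (SE; edgeR adjusted p = 0.00275). Summed hepatocyte markers lay between 29730 and 31480 CPM in Li-KO and between 24050 and 33440 CPM in Ctl. Summed erythroid markers (3 genes, none called) lay lower in Li-KO, at 245.6 to 478.9 CPM against 607.6 to 672.9 CPM in Ctl, and summed cholangiocyte markers (5 genes, of which Sox9 was called) were 151.4, 65.0 and 47.4 CPM in Li-KO libraries 0, 1 and 2, against 33.2, 50.0 and 63.5 CPM in Ctl libraries 0, 1 and 2. Their highest value thus stood in Li-KO 0, which also had the highest snoRNA sum. The part of either in the results below was not tested. In bulk tissue, fewer cells of a type and less RNA per cell cannot be told apart.

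Which snoRNAs these libraries held went with length. Of 89 family genes under 100 bases, 8 were members, and the genes of that length together gave 1.77% of the family's fragments. Of 43 genes from 125 to under 150 bases, 27 were members, and that length gave 14.5% of fragments. All 10 genes of 150 bases or more were members, and they gave 83.3%. Members had a median length of 134.5 bases, against 85.5 bases for the 102 other family genes. Of these 102, 52 had no fragment in any library, among them all 17 listed Snord116 copies, which belong to an imprinted cluster known for its expression in brain. As length and class go together (the median was 101.5 bases in C/D members and 136 in H/ACA members), the share of members in a class cannot be told apart from the length of its genes. Just inside the sum of 60 stood Snord32a with 60, Snora65 with 68 and Scarna3b with 72 fragments. Just outside it stood Snord83b with 57, Snora43 with 56.3 and Snord49b with 55.

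**Figure D1:**
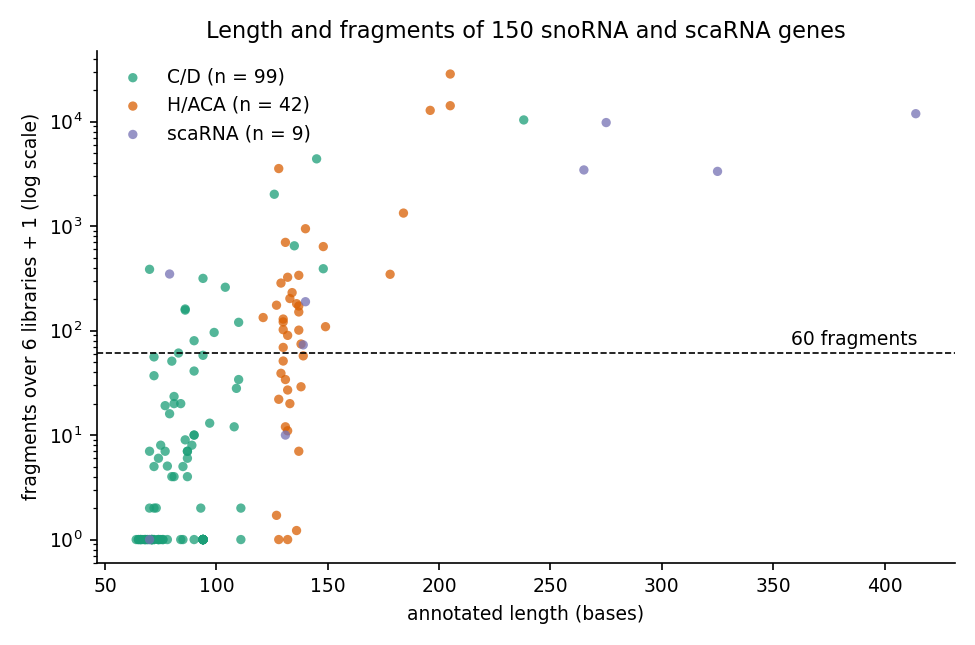
Annotated length in bases (x) and fragments summed over the 6 libraries plus 1 (y, log scale) of the 150 snoRNA and scaRNA genes, 1 point per gene, coloured by class; the dashed line marks 60 fragments. All 10 genes of 150 bases or more lie above the line, and of the 89 under 100 bases, 8 do.

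The most abundant member was Snora73a, the mouse form of U17, an H/ACA RNA known in other species for its need in the first cleavages of the small subunit ribosomal RNA precursor. It averaged 131 CPM over the 6 libraries and was followed by its copy Snora73b with 65.4 CPM, by Snora74a with 60.4 CPM, and by Scarna2, which in human guides methylation of the U2 spliceosomal RNA, with 55.9 CPM. The most abundant C/D member was Snord17 with 47.9 CPM. Per kilobase of annotated length the order began in the same way, with Snora73a at 639 CPM per kb, Snora73b at 319, Snora74a at 308 and Snord17 at 201. The deposited FPKM values gave short RNAs more weight: they were 1.40 times the CPM per kb for Scarna2 (414 bases) and 56.2 times for Snord104 (70 bases). By FPKM the first place stayed with Snora73a (mean 2759 FPKM) and the second went to Snora78 (1791 FPKM), while Snord104 stood at 1382 FPKM. Snora73a and Snora73b lie side by side on the minus strand at mm10 chr4:132352775-132352979 and chr4:132352322-132352526, inside Rcc1 and Snhg3. They are shown because they gave the most fragments and because 198 of their 205 aligned bases are identical, so that fragments can be shared between them and their separate levels are uncertain. All sequences here are GENCODE M21 transcripts on mm10, and the capitals mark the ACA box near the 3′ end of H/ACA RNAs or, in C/D RNAs, the C box (TGATGA) and D box (CTGA).
Snora73a: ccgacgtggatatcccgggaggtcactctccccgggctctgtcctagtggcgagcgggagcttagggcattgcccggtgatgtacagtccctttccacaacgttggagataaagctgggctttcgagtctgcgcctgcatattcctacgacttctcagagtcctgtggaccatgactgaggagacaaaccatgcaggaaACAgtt
Snora73b: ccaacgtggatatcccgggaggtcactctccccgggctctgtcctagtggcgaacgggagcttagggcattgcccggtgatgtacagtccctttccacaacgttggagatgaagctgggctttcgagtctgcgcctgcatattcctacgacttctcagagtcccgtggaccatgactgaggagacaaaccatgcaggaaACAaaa
Snord17: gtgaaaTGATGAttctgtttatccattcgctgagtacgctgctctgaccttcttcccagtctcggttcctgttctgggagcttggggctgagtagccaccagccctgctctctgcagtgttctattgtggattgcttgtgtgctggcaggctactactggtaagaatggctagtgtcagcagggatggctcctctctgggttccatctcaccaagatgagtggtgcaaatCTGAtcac

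The annotated transcripts carried the motifs of their class. On the strand of the RNA, ACA stood in the last 6 bases of 25 of 27 H/ACA members (92.6%; 39 of all 42 H/ACA genes, 92.9%), and TGATGA in the first 15 bases of none of them. CTGA stood in the last 15 bases of 14 of 14 C/D members (92 of all 99 C/D genes, 92.9%), and TGATGA in the first 15 bases of 9 of 14 (64.3%; 64 of 99, 64.6%). Among scaRNA members, which are known to mix the 2 designs, 3 of 7 carried TGATGA, 4 CTGA and 3 ACA in these windows. The members thus held these motifs in shares near those of their whole classes.

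In the comparison of Klf15-deficient with control liver, 4 of the 47 members that passed the filter on low counts changed (edgeR's quasi-likelihood test, adjusted p under 0.05 over all 16533 genes tested). Snora78, Snora68 and Scarna2 rose in Li-KO, and Snora23 fell. These are 8.51% of the members tested, against 12% of all genes tested (6.11% higher and 5.90% lower). Over all 47 members, the share called thus does not stand above the background. The fold changes leaned one way: 37 of 47 were above 0 (78.7%), against 49.2% of all genes, and their median was 0.61 on the log2 scale, against -0.01 for all genes. In 12 members every Li-KO library lay above every Ctl library (25.5%; 17.4% of all genes), and in 3 every Li-KO library lay below (6.38%; 17.8% of all genes). Unadjusted p was under 0.05 for 16 members with higher and 2 with lower levels in Li-KO (34.0% and 4.26% of members, against 14.6% and 14.8% of all genes). Scarna3b, with 72 fragments in all, was not tested. Members with few fragments can have reached the fragment sum through a single group, which favours fold changes away from 0. The part of this choice in the counts above was not tested. All 4 calls fell among the 16 members with a sum of 600 or more (25% of these, against 12% of all genes tested). The share called over all genes with such a sum is not given here. Of these 16 members, 15 had a fold change above 0. Among these 16, every Li-KO library lay above every Ctl library in 4 and below in 1.

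**Figure D2:**
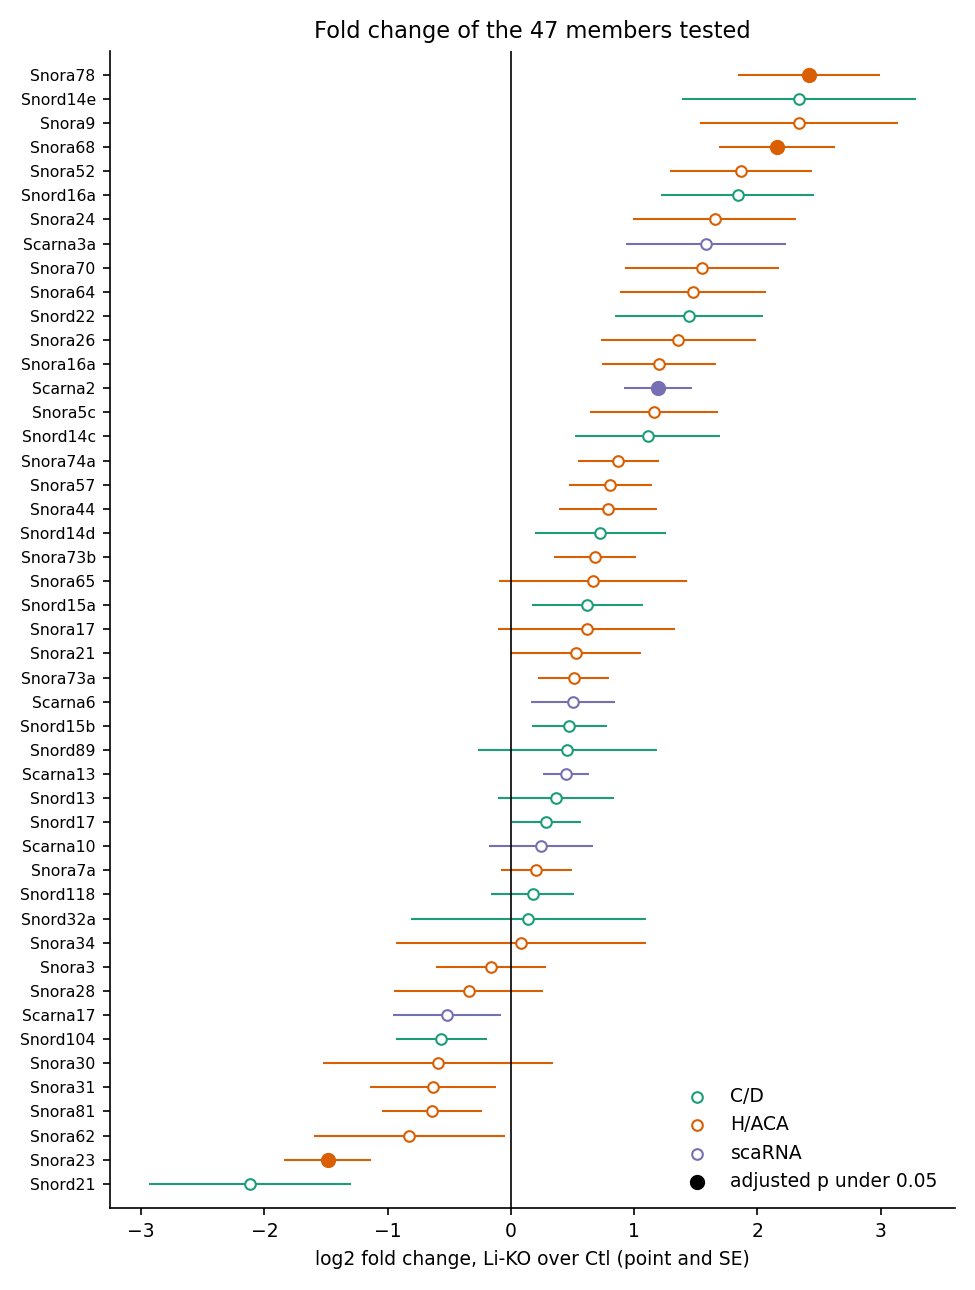
Log2 fold change, Li-KO over Ctl, of the 47 members tested (x, point and SE; rows sorted by fold change), coloured by class and filled where the edgeR adjusted p was under 0.05. Of the points, 37 lie right of 0 and 4 are filled: Snora78, Snora68, Scarna2 and Snora23.

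Snora68 and Snora23 are, in human, guides for pseudouridines of the large subunit ribosomal RNA. Snora68 had 5.93, 7.23 and 3.45 CPM in Li-KO libraries 0, 1 and 2, against 2.11, 0.646 and 0.928 CPM in Ctl libraries 0, 1 and 2. The groups did not overlap, and Ctl 0 stood above the other Ctl libraries. The log2 fold change was 2.16 ± 0.47 (SE; edgeR adjusted p = 0.0260). Snora78 had 37.0, 32.4 and 18 CPM in Li-KO, against 11.1, 3.04 and 2.12 CPM in Ctl. Here too Ctl 0 was the highest control library, and it stayed below the lowest Li-KO library. Its log2 fold change was 2.42 ± 0.58 (edgeR adjusted p = 0.0329). Scarna2 had 102.6, 66.1 and 64.4 CPM in Li-KO, against 46.6, 32.4 and 23.1 CPM in Ctl, with a log2 fold change of 1.19 ± 0.27 (edgeR adjusted p = 0.0301). Snora23 ran the other way: it had 1.93, 3.08 and 4.06 CPM in Li-KO, against 12.2, 5.92 and 7.40 CPM in Ctl. Its groups did not overlap, and its log2 fold change was -1.49 ± 0.35 (edgeR adjusted p = 0.0323).

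The 4 calls were close to the threshold and were lost when some single libraries were left out. Snora68 missed it without Li-KO 1, Ctl 1 or Ctl 2 (edgeR adjusted p up to 0.0945), Scarna2 and Snora78 without Li-KO 0, Li-KO 1, Ctl 1 or Ctl 2 (up to 0.111 and 0.118), and Snora23 without any single library other than Li-KO 2 (up to 0.103).

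The transcripts of Snora78 and Snora23 are shown as H/ACA members that changed in opposite directions. Snora78 is at mm10 chr17:24719676-24719803 on the minus strand, in an intron of the noncoding gene Snhg9 and opposite to Rps2. Snora23 is at chr7:110046364-110046547 on the plus strand, in an intron of Ipo7 and opposite to 1600010M07Rik. Both end in the ACA box. Scarna2, the longest member with 414 bases, lies in no annotated host gene.
Snora78: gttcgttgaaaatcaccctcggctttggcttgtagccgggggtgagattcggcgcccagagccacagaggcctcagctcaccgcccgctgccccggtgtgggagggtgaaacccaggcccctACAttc
Snora23: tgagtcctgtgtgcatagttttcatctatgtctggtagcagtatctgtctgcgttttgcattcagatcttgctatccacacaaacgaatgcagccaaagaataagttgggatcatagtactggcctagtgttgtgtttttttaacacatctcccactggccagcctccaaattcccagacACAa

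Of the 6 most abundant members, Scarna2 passed the test and the other 5 did not. Snora73a had 177, 147 and 138 CPM in Li-KO, against 162, 95.8 and 66.1 CPM in Ctl. Ctl 0 lay within the Li-KO range and the other Ctl libraries below it, and the log2 fold change was 0.51 ± 0.29 (edgeR adjusted p = 0.280). Snora73b had 97.0, 72.9 and 71.7 CPM in Li-KO, against 79.4, 43.3 and 27.9 CPM in Ctl, and Snora74a 103, 83.2 and 48.0 CPM in Li-KO, against 62.5, 35.0 and 30.4 CPM in Ctl. In both, only Ctl 0 reached into the Li-KO range. Their log2 fold changes were 0.68 ± 0.33 and 0.87 ± 0.33 (edgeR adjusted p = 0.212 and 0.120). Without Ctl 0, Snora73a, Snora73b and Snora74a passed the test, with log2 fold changes of 0.92, 1.17 and 1.25 (edgeR adjusted p = 0.0324, 0.0245 and 0.0441). Without Ctl 2 their log2 fold changes fell to 0.25, 0.39 and 0.68 (edgeR adjusted p = 0.573, 0.436 and 0.305). Snord17 had 64.1, 56.9 and 36.9 CPM in Li-KO, against 61.1, 37.9 and 30.3 CPM in Ctl, with a log2 fold change of 0.29 ± 0.28. Scarna13, a guide for spliceosomal RNAs, had 62.3, 53.3 and 41.3 CPM in Li-KO, against 46.5, 35.7 and 32.8 CPM in Ctl, with a log2 fold change of 0.45 ± 0.19 (edgeR adjusted p = 0.156).

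Of the 14 C/D members, none was called, against 12% of all genes tested. By edgeR, 3 had an unadjusted p under 0.05 with higher and 1 with lower levels in Li-KO. These are 21.4% and 7.14%, against 14.6% and 14.8% of all genes. DESeq2 called 1, Snord21, lower, and 19.0% of all genes. Snord22 is the mouse form of U22, known from Xenopus for its need in small subunit ribosomal RNA maturation. It had 16.3, 13.3 and 11.8 CPM in Li-KO, against 10.4, 3.52 and 1.25 CPM in Ctl. Its groups did not overlap, yet the Ctl libraries differed among themselves far more than the Li-KO libraries. The log2 fold change of 1.45 ± 0.60 did not pass (edgeR adjusted p = 0.151, with 0.0152 without Ctl 0 and 0.350 without Ctl 1). Snord21 had 0, 0.578 and 0.924 CPM in Li-KO, against 1.99, 2.48 and 2.23 CPM in Ctl. Li-KO 0 held no fragment of it, which at this depth allows up to 0.0967 CPM. Its log2 fold change was -2.12 ± 0.82 (edgeR adjusted p = 0.128, with 0.0474 without Li-KO 0 and 0.2855 without Ctl 1). Snord118, the mouse form of U8, which acts in large subunit ribosomal RNA maturation, had 2.13, 4.50 and 2.82 CPM in Li-KO, against 3.0, 3.23 and 2.12 CPM in Ctl, with a log2 fold change of 0.18 ± 0.34. Snord13, the mouse form of U13, stood at 0.902, 2.02 and 1.09 CPM in Li-KO, against 1.56, 0.70 and 0.849 CPM in Ctl, with a log2 fold change of 0.36 ± 0.47. Without Li-KO 1 the sign of both turned, to -0.17 for Snord118 and -0.05 for Snord13. Snord104, one of the shortest members, had 1.87, 0.963 and 1.34 CPM in Li-KO, against 2.66, 1.86 and 1.65 CPM in Ctl, with a log2 fold change of -0.56 ± 0.37.

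Snord22 and Snord21 are shown because they were the C/D members with the largest mean level among those whose groups did not overlap, in the 2 directions. Snord21, at mm10 chr5:107904555-107904648 on the plus strand, holds both boxes in the windows searched. Snord22, at chr19:8725866-8725991 on the plus strand, holds CTGA but not the letters TGATGA.
Snord22: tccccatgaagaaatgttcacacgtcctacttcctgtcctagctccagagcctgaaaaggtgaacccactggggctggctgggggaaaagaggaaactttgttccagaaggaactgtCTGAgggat
Snord21: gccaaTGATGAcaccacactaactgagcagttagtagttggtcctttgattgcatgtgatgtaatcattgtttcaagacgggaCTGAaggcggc

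Further H/ACA members stood below the threshold with groups apart. Snora52 had 1.16, 0.578 and 0.535 CPM in Li-KO, against 0.264, 0.242 and 0.106 CPM in Ctl, with a log2 fold change of 1.87 ± 0.58 (edgeR adjusted p = 0.0694). Snora16a had 0.870, 1.28 and 0.802 CPM in Li-KO, against 0.527, 0.269 and 0.477 CPM in Ctl, with a log2 fold change of 1.20 ± 0.46 (edgeR adjusted p = 0.125). The C/D member Snord16a had 0.806, 0.771 and 0.559 CPM in Li-KO, against 0.264, 0.269 and 0.0531 CPM in Ctl, with a log2 fold change of 1.84 ± 0.62 (edgeR adjusted p = 0.0879). Snora81 had 0.612, 1.41 and 1.55 CPM in Li-KO, against 1.89, 2.15 and 1.56 CPM in Ctl, with a log2 fold change of -0.64 ± 0.41. These members lie near or below 1 CPM, and in Snora81 the groups are apart by the narrow gap between Li-KO 2 and Ctl 2. Some reached the fragment sum that defines members mostly through Li-KO. Snora52 had 36, 18 and 22 fragments in Li-KO, against 11, 9 and 4 in Ctl. Snord16a had 25, 24 and 23 in Li-KO, against 11, 10 and 2 in Ctl. Choice by that sum favours weakly detected members that are high in a single group, and its part in these fold changes was not tested.

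**Figure D3:**
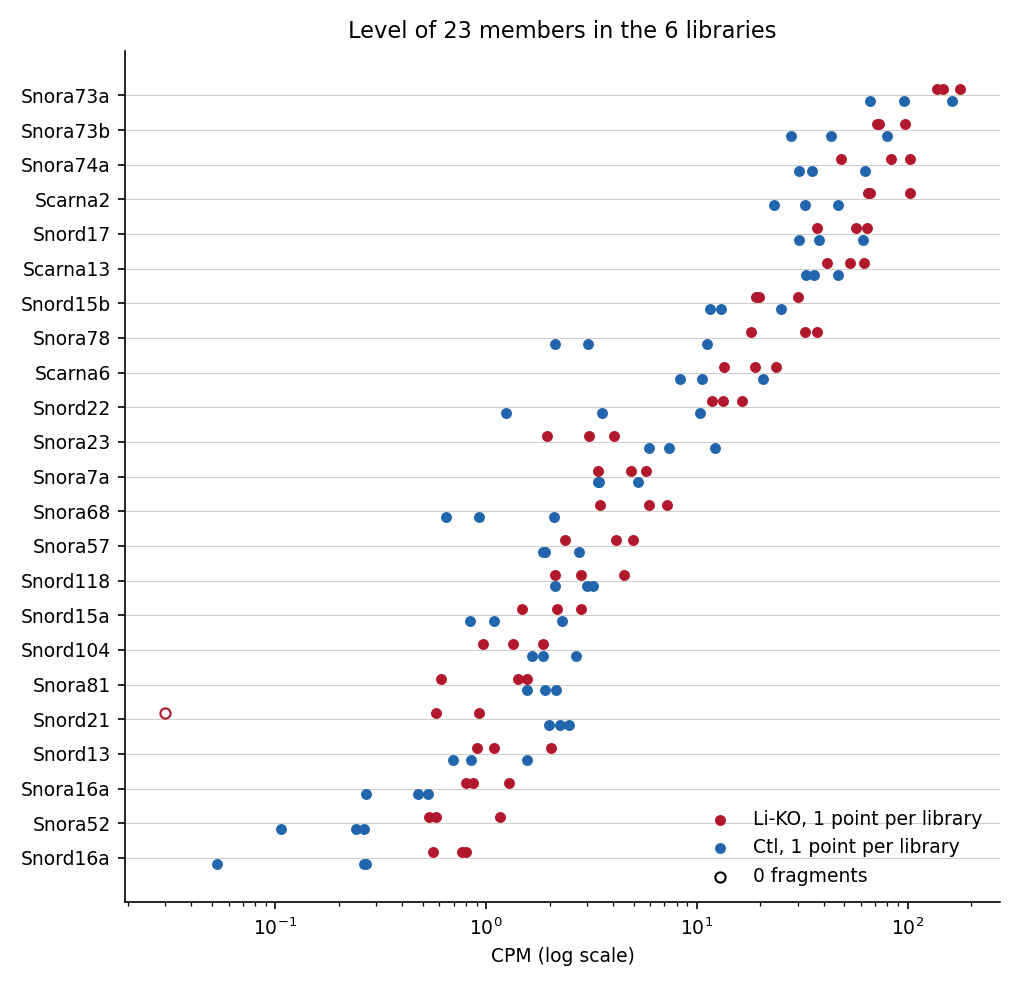
CPM (x, log scale) in each of the 6 libraries for 23 members, sorted by mean level, with Li-KO points drawn above Ctl points in each row; the open point marks Snord21 in Li-KO library 0, which had 0 fragments. The groups are apart for Snora68, Snora78, Scarna2 and Snora23, and overlap for Snora73a, Snora73b and Snora74a.

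By class, the summed level of H/ACA members was 451.1, 378.5 and 302.3 CPM in Li-KO libraries 0, 1 and 2, against 353.9, 201.5 and 147.9 CPM in Ctl libraries 0, 1 and 2. The means were 377.3 ± 74.4 CPM in Li-KO and 234.4 ± 106.8 CPM in Ctl (SD, n = 3 each), a ratio of 1.61. Ctl 0 lay above Li-KO 2, so the groups overlapped. C/D members summed to 109.4, 105.8 and 91.1 CPM in Li-KO, against 110.7, 63.5 and 54.4 CPM in Ctl, a ratio of means of 1.34, and Ctl 0 was the highest of all 6 libraries. scaRNA members summed to 210.2, 161.4 and 133.8 CPM in Li-KO, against 138.2, 96.3 and 71.8 CPM in Ctl, a ratio of 1.65, with Ctl 0 just above Li-KO 2. In deposited FPKM the scaRNA sums were 1858, 1658 and 1820 in Li-KO, against 1994, 1951 and 1077 in Ctl, and the log2 ratio of means was 0.0872, against 0.723 by CPM. The largest part of these FPKM sums was Scarna17 (79 bases), with a mean of 663.8 FPKM in Li-KO and 971.9 FPKM in Ctl. By CPM it was small, at 1.26 in Li-KO and 1.81 in Ctl. Each class thus had a higher mean in Li-KO by CPM, and in each the Ctl 0 library reached into the Li-KO range.

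**Figure D4:**
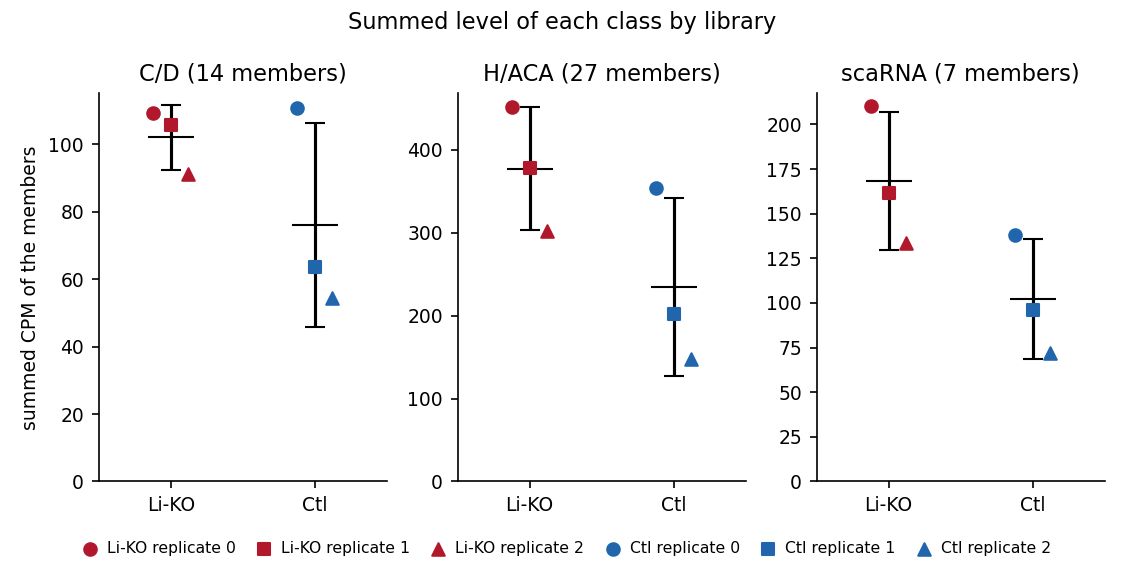
Summed CPM of the members of each class (y, from 0) in each library, Li-KO left and Ctl right, 1 point per library with the mean and SD as bars. Ctl library 0 reaches the Li-KO range in all 3 classes, at 110.7 CPM for C/D, 353.9 CPM for H/ACA and 138.2 CPM for scaRNA.

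The ratio of the H/ACA to the C/D sum was 4.12, 3.58 and 3.32 in Li-KO, against 3.20, 3.18 and 2.72 in Ctl, with means of 3.67 ± 0.41 and 3.03 ± 0.27 (SD, n = 3 each). All Li-KO ratios lay above all Ctl ratios. Without Snora73a and Snord17, the most abundant member of each class, the ratio was 6.05, 4.75 and 3.04 in Li-KO, against 3.86, 4.13 and 3.40 in Ctl, and the groups overlapped. Fold changes of single members ran from -1.49 to 2.42 in H/ACA (median 0.68) and from -2.12 to 2.34 in C/D (median 0.47). Of 27 H/ACA members tested, 2 were called higher and 1 lower (11.1% called), and of 14 C/D members none, against 12% of all genes tested. Whether the classes differ in their response was not tested.

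Sums were also taken by length. The 30 members from 100 to under 150 bases summed to 113.9, 116.9 and 88.9 CPM in Li-KO, against 79.6, 39.99 and 33.4 CPM in Ctl, and the groups did not overlap. The 10 members of 150 bases or more summed to 650.9, 522.2 and 430.9 CPM in Li-KO, against 514.8, 313.3 and 234.0 CPM in Ctl, and the groups overlapped through Ctl 0. The 8 members under 100 bases summed to 6.03, 6.65 and 7.41 CPM in Li-KO, against 8.39, 7.99 and 6.66 CPM in Ctl. These shortest members had the higher mean in Ctl (6.70 ± 0.69 CPM in Li-KO and 7.68 ± 0.91 CPM in Ctl; SD, n = 3 each), with overlapping groups.

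Most genes that hold a snoRNA did not pass the test. Of the 48 members, 41 lay within an annotated host on the same strand, and 14 of these lay in 13 ribosomal protein genes. Of 36 host genes tested, 4 rose in Li-KO and 1 fell, against 6.11% called higher and 5.90% lower of all genes tested. Rpl13a and Rps3, which encode ribosomal proteins, Rcc1, an exchange factor for the GTPase Ran, and Tbrg4, a mitochondrial RNA-binding protein, rose. Srcap, a chromatin remodelling ATPase, fell. DESeq2 called 6 hosts higher and 1 lower, and each of the 5 edgeR calls was lost without at least 1 of the libraries. Over 41 pairs of a member and a tested host, the member's log2 fold change was above the host's in 28. The pairs held 38 members and 35 hosts, so that some entered more than once. The median was 0.62 for members and 0.19 for hosts. Neither the host of Snora78 nor that of Snora23 was called.

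Ipo7, an import receptor and the host of Snora23, had 172.7, 225.2 and 312.5 CPM in Li-KO, against 266.5, 216.4 and 266.7 CPM in Ctl, with a log2 fold change of -0.08 ± 0.21. The log2 ratio of Snora23 to Ipo7 was -6.31 ± 0.15 in Li-KO and -4.94 ± 0.42 in Ctl, lower in every Li-KO library than in any Ctl library (SD, n = 3 each; exact permutation test, two-sided, p = 0.1, the smallest that 3 against 3 allows; adjusted over 3 pairs, 0.15). Snhg9, the host of Snora78, was near the limit of detection, at 0.419, 0.963 and 0.413 CPM in Li-KO, against 0.311, 0.161 and 0.239 CPM in Ctl, with a log2 fold change of 1.31 ± 0.57 (edgeR adjusted p = 0.168). Snora78 over Snhg9 gave overlapping groups (exact permutation p = 0.2). The 3 pairs were those of called members with a host, so these members already differed between the same libraries. As Ipo7 hardly changed, the Snora23 ratio largely repeats the separation by which Snora23 was picked, and adds no separate evidence. The smallest p of 0.1 also lies above the threshold used for calls, so no pair could have passed.

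Members that share a host all had fold changes above 0, as did 37 of the 47 members tested, so a shared sign says little. Whether their sizes differ was not tested. Hspa8, a heat shock chaperone with a log2 fold change of 0.09, holds Snord14c, Snord14d and Snord14e, whose log2 fold changes were 1.11 ± 0.59, 0.72 ± 0.53 and 2.34 ± 0.95. Snord14c and Snord14d are 97.7% identical, so fragments can be shared between them. Rps3, with a log2 fold change of 0.49 ± 0.12 (edgeR adjusted p = 0.0366), holds Snord15b at 0.47 ± 0.31 and Snord15a at 0.62 ± 0.45, close to its own. Rcc1, at 0.66 ± 0.17 (edgeR adjusted p = 0.0419), holds Snora73a and Snora73b at 0.51 and 0.68, while Snhg3, which contains them too, stood at -0.26 ± 0.22. Snora64 lies in Rps2, on the strand opposite to Snora78, and had 2.13, 2.02 and 0.778 CPM in Li-KO, against 0.863, 0.673 and 0.212 CPM in Ctl, with a log2 fold change of 1.48 ± 0.59 (edgeR adjusted p = 0.138), while Rps2 stood at 0.41 ± 0.11 (edgeR adjusted p = 0.0511). The 25 members that overlap a host exon had a median log2 fold change of 1.11, against 0.45 in the other hosted members tested and 0.36 in members without a host. No source used here states how fragments over a shared exon were divided between snoRNA and host, or whether counting used the library strand, so these members and those opposite to another gene are uncertain.

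**Figure D5:**
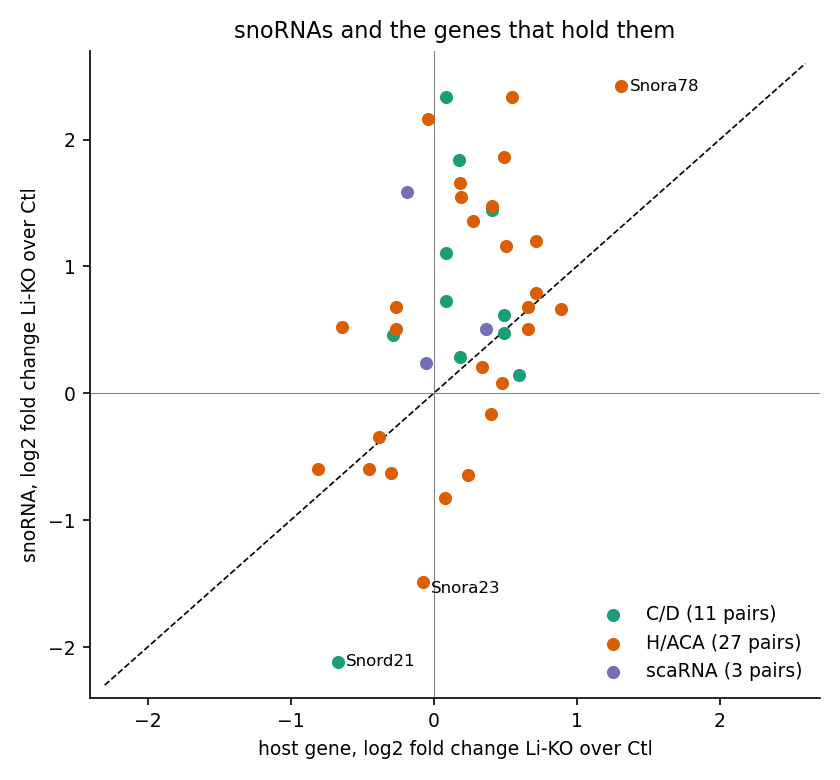
Log2 fold change, Li-KO over Ctl, of each host gene (x) and of the snoRNA or scaRNA it holds (y), 41 pairs coloured by class, with the line of equal change dashed. The points lie above the line in 28 pairs, and Snora23 stands far below it at a host value near 0.

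Proteins of the snoRNA particles were measured beside the RNAs. The counts below stand against 6.11% called higher and 5.90% lower of all genes tested by edgeR. Of the 4 H/ACA core proteins, Nop10 and Nhp2 rose: Nop10 had 52.1, 53.5 and 52.7 CPM in Li-KO, against 34.9, 32.6 and 35.9 CPM in Ctl (log2 fold change 0.61 ± 0.11; edgeR adjusted p = 0.0130), and Nhp2 had 32.0, 28.6 and 23.6 CPM in Li-KO, against 17, 16.1 and 19.5 CPM in Ctl (0.68 ± 0.15; edgeR adjusted p = 0.0292). Dkc1, the pseudouridine synthase itself, stood at 0.26 ± 0.19 and Gar1 at -0.03 ± 0.39, and neither passed. None of the 4 C/D core proteins passed by edgeR and 1 by DESeq2; at an unadjusted p under 0.05, Nop56 alone was higher in Li-KO, at 0.75 ± 0.27 (edgeR adjusted p = 0.108), and the methyltransferase Fbl stood at 0.03 ± 0.30. Of 15 assembly and trafficking factors, 1 rose, the chaperone adaptor Pih1d1 (0.61 ± 0.12; edgeR adjusted p = 0.0203). Of 21 factors of snoRNA release, trimming and decay, the exosome subunit Exosc4 rose (0.75 ± 0.15; edgeR adjusted p = 0.0181) and the exonuclease Xrn1 fell (-0.42 ± 0.11; edgeR adjusted p = 0.0466). Of 48 ribosome biogenesis factors, 3 rose and none fell (6 and 0 by DESeq2, 10 and 0 at an unadjusted p under 0.05). These were the RNA polymerase subunits Polr1d and Polr1c and the ribosomal RNA methyltransferase Emg1, with log2 fold changes of 0.75 ± 0.14, 0.86 ± 0.18 and 0.46 ± 0.12 (edgeR adjusted p = 0.0169, 0.0213 and 0.0440). That is 3 of 48 against 6.11% of all genes called higher. Each of these calls was lost without at least 1 of the libraries, and that of Emg1 without any 1 of the 6.

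Other short RNAs, outside the Snora, Snord and Scarna symbols, were measured in the same libraries. Here too the background by edgeR was 6.11% called higher and 5.90% lower of all genes tested. Of 9 tested, Rmrp, the RNA of the RNase MRP particle that cleaves the ribosomal RNA precursor, and Terc, the telomerase RNA, whose end is an H/ACA domain bound by the H/ACA core proteins, rose and none fell (4 and 0 by DESeq2 and at an unadjusted p under 0.05). Both calls were lost without at least 1 of the libraries. Rmrp had 1407, 1268 and 998 CPM in Li-KO, against 832, 433 and 461 CPM in Ctl (log2 fold change 1.09 ± 0.27; edgeR adjusted p = 0.0352). Terc had 10.5, 7.90 and 5.25 CPM in Li-KO, against 3.55, 4.57 and 2.76 CPM in Ctl (1.12 ± 0.30; edgeR adjusted p = 0.0473). Rpph1, the RNA of RNase P, had 5245, 4429 and 2942 CPM in Li-KO, against 2899, 2249 and 2720 CPM in Ctl (0.68 ± 0.23; edgeR adjusted p = 0.0943). The sum over 16 such RNAs was 6705, 5750 and 3971 CPM in Li-KO, against 3774, 2712 and 3208 CPM in Ctl. It was highest in Li-KO 0, as was the sum over all members, and its part in the snoRNA values was not tested. Of the 9 tested, 4 had a log2 fold change above 0. Rny3, a short RNA of Ro particles, had 0.0967, 5.01 and 5.98 CPM in Li-KO, against 6.52, 4.33 and 4.99 CPM in Ctl, very low in Li-KO 0 alone. In Li-KO 0, Snord21, Snord32a, Snora30 and Snora34 also had 0 fragments, while the sum over members of 150 bases or more was the highest of the 6 libraries. Among 18 noncoding snoRNA host genes tested, Meg3, Rian and Snhg6 rose and none fell (5 and 0 by DESeq2, 8 and 0 at an unadjusted p under 0.05). With 1 library left out, Snhg6 kept its call in 3 of 6 fits, and Meg3 and Rian in 6 of 6. Rian, which holds an imprinted C/D cluster, had 83.8, 41.7 and 57.7 CPM in Li-KO, against 1.56, 6.65 and 6.47 CPM in Ctl (log2 fold change 3.65 ± 0.51; edgeR adjusted p = 0.00603), and it hosts none of the 48 members. Of 7 long nuclear RNAs tested, Meg3, Rian and Mirg rose and none fell, by edgeR and DESeq2 alike and also at an unadjusted p under 0.05. Meg3 and Rian stand in both lists, so their calls here are the same as those among the noncoding host genes. The sum over 7 such RNAs was 9594, 10350 and 4045 CPM in Li-KO, against 4987, 5746 and 2656 CPM in Ctl. Most of it was Neat1, an RNA of nuclear paraspeckles, with 9061, 9873 and 3560 CPM in Li-KO, against 4642, 5369 and 2246 CPM in Ctl. Library 2 was the lowest of its group in both, as it was for the sum over all members, and its part in the snoRNA values was not tested.

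Libraries of one group differed in their snoRNAs more than in most genes, except in Li-KO at the lowest levels. The SD of log2 CPM between libraries (prior count 2) had a median over members of 0.55 in Li-KO and 0.65 in Ctl, against 0.26 and 0.21 over all genes tested. Over the 10 members at 10 CPM or more the median SD was 0.40 in Li-KO and 0.62 in Ctl, against 0.18 and 0.14 over all genes at that level. Below 1 CPM the 21 members stood at 0.65 in Li-KO and 0.89 in Ctl, against 0.66 and 0.50 over all genes at that level, so that in Li-KO they were no more spread than other genes. The largest spread among members above 9 CPM was that of Snord22 in Ctl, with an SD of 1.5, against 0.24 in Li-KO, and then that of Snora78 in Ctl with 1.24.

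The spread had a common direction. Ctl 0 was the highest Ctl library in 36 of the 48 members (75%; 36% of all genes) and Ctl 2 the lowest in 34 (70.8%; 33.1% of all genes). In Li-KO, library 2 was the lowest in 28 members (58.3%; 33.1% of all genes). All members together made up 0.0779, 0.0633 and 0.050% of fragments in Li-KO libraries 0, 1 and 2, and 0.0588, 0.0376 and 0.0266% in Ctl libraries 0, 1 and 2. Without Ctl 0 the median log2 fold change of the members was 1.05, 8 were called higher and none lower (16.7% of members, against 7.70% of all genes). Without Ctl 2 the median was 0.37 and none was called (3.78% of all genes were), with an unadjusted p under 0.05 for 7 higher and 1 lower by edgeR.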

How the data were processed

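Per the labels' protocols, liver total RNA was isolated on columns and made into libraries with a stranded total RNA kit. The submitters' processing notes name STAR, Cufflinks, Cuffdiff and mm10 without versions; no source used here states the annotation or the strand setting. Per the file headers, the deposited table gives estimated counts (raw fragments, of which 3.29% were not whole) and FPKM per gene and library, and its WT and KO conditions were taken as Ctl and Li-KO. Of 48432 genes, 48051 were matched to symbols by gene ID. Coordinates, exons and transcript sequences came from GENCODE M21. The 77 genes that Cuffdiff skipped for depth were left out, together with their fragments.

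Estimated counts were rounded and tested with edgeR 4.0.16 (R 4.3.3; TMM, filterByExpr with a minimum count of 10 and a total of 15, quasi-likelihood test, Benjamini-Hochberg adjustment over 16533 genes, threshold 0.05), and the test was checked on simulated data. CPM used TMM-adjusted library sizes over the remaining genes. A host is a gene on the same strand that contains the snoRNA. The members, lists and tests were chosen with earlier results of these data known. Named were every called member, the 8 most abundant Snord, 8 Snora and 3 Scarna members, up to 6 members per direction with the smallest p and groups apart, their hosts, the members beside the threshold, up to 6 called genes per list, and Klf15. Snora64, Snord14c, Snord14d, Snord14e and further list genes were named after their values were seen. Alternatives were relative log expression (RLE) size factors in edgeR, library totals alone, no filter and a total of 60. Others were DESeq2 1.42.0, limma 3.58.1 on log2(FPKM + 0.1), log2(FPKM + 1) and voom weights, a replicate block and each library left out. One host gene and what rests on it are not reported here. Floors (3 fragments) cover counting error only.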

Additional observations from a re-analysis of the deposited data

How the results depend on the processing

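The count of called members was 3 higher and 1 lower with edgeR on TMM, with RLE size factors and with library totals alone. It was the same with a filter on a total of 60 fragments and with limma-voom, and 4 and 1 without a filter. DESeq2 called 8 members (6 higher, 2 lower; 17% of members, against 19.0% of all genes), and limma on log2(FPKM + 0.1) and log2(FPKM + 1) each called 5 higher and 1 lower. Leaving out 1 library gave 0 to 8 called, 0 to 8 higher and 0 to 1 lower, with 8 higher without Ctl 0 and none without Li-KO 1, Ctl 1 or Ctl 2. Over all genes these last 3 fits called 476, 432 and 642, against 1986 with all libraries. For particle proteins, hosts and other listed genes, 19 were called by edgeR, 29 by DESeq2, and 3 to 22 with 1 library left out. Summed FPKM gave a log2 ratio of 0.0872 for scaRNAs, against 0.723 by CPM, and 0.656 for H/ACA over C/D, against 0.278 by CPM. Snord118 and Snord13 turned sign without Li-KO replicate 1; over the 6 fits with 1 library left out their log2 fold changes ran from -0.17 to 0.41 and from -0.054 to 0.78. Of the values of the 23 plotted members under the alternatives, 310 kept their direction and side of the threshold, 17 lost and 16 gained a call, and 2 turned. The cause of these changes was not tested. With the replicate number as a block, 7 members were higher and 0 lower, 7 in all (14.9% of members, against 11.9% of all genes), and Snora23 had an adjusted p of 0.0519. Deviations of same-numbered libraries correlated at 0.018, 0.081 and 0.067. Li-KO 1 and Li-KO 2 correlated best with the Ctl library of the same number, and Li-KO 0 with Ctl 1 (0.028). Correlations this small do not settle whether the numbers pair the samples.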
